A study of Mus musculus with 300 samples.

Results

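The cells described here are the second-brightest quartile, Q2, of spermatogonia with an ID4-EGFP reporter, taken from the testes of adult mice. Membership was taken from the EGFP quartile given in each cell's label, which placed 78 of 300 cells in Q2, next to 79 in the brightest quartile Q1, 71 in Q3 and 72 in the dimmest quartile Q4. The labels set the quartiles by EGFP brightness measured in the images of the captured cells, so no RNA value chose the members. All animals carried the ID4-EGFP reporter, in which EGFP reports on Id4 expression, and were untreated, and no animals without the reporter were analysed here. Each preparation pooled testes of several adult mice, and the cells were enriched on Percoll, sorted as CD9-bright and EGFP-positive, and captured singly on Fluidigm C1 chips for polyA RNA sequencing. The number in the title was read as 1 of the 4 preparations, which held 17, 21, 20 and 20 Q2 cells. The preparation is the replicate in every comparison (n = 4), because cells of a preparation share their animals and chip. The values are FPKM, fragment counts divided by transcript length and by sequencing depth, and levels below are means over cells of log2(FPKM + 1) unless FPKM is named. The question was which genes of Q2 stood at the level of Q1, which already stood at the level of Q3, and how much Q2 cells differed among themselves.

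Spermatogonial stem cells lie on the basement membrane of the seminiferous tubule and are kept by GDNF from Sertoli and other somatic cells. GDNF binds the co-receptor GFRA1, which signals through the receptor tyrosine kinase RET, and FGF adds to the ERK signal in the same cells. ETV5, an ETS-family transcription factor, and TCL1, which boosts the kinase AKT, belong to this response, while SOHLH1, STRA8 and the receptor KIT mark the path to differentiation under retinoic acid. ID4 is an inhibitor of DNA binding by E-box factors and is enriched in the stem cell pool, which is why the reporter was used to grade it.

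The promoters of 3 genes are shown because these genes took different places between Q1 and Q3: Etv5 stood near Q1 in Q2, Tcl1 stood in between, and Lhx1 stood near Q3. Each line gives the 250 bases before the start site listed by RefSeq, 5′ to 3′ on the gene's own strand, in build GRCm38.p6. Capitals mark matches to the E-box letters CANNTG, to the ETS core CCGGAA or to the EGR site GCGTGGGCG, searched on both strands over 300 bases (250 before to 50 after the start), with no overlapping matches among those printed. Etv5 has 2 listed starts, and the window with E-box letters is shown.
Etv5, chr16:22439571-22439820, minus strand: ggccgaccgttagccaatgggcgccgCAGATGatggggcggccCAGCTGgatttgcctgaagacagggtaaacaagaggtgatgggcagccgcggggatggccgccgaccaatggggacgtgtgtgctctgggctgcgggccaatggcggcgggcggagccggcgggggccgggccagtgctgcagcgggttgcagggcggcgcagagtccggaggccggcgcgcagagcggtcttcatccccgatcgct
Tcl1, chr12:105222738-105222987, minus strand: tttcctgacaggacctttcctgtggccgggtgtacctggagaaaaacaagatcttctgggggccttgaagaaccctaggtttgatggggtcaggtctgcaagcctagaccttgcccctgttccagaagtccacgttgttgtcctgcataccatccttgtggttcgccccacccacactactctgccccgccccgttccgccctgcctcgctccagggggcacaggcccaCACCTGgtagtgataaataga
Lhx1, chr11:84525535-84525784, minus strand: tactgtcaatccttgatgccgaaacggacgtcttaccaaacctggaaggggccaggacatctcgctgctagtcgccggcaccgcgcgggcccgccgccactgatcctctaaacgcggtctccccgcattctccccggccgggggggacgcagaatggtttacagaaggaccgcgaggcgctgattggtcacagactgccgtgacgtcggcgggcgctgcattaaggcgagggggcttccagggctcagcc
The Etv5 window held 2 matches to CANNTG, the Tcl1 window held 1, and the Lhx1 window held 0 of any of the 3 motifs. CANNTG was in 72.3% of all 32851 promoters in the table, CCGGAA in 14.9% and GCGTGGGCG in 0.612%. Among the promoters of tested genes the shares were 62.2%, 29.9% and 1.29%. The 115 promoters found for 76 of the 102 genes that differed between Q1 and Q3 gave 64.4% for CANNTG, 18.3% for CCGGAA and 0% for GCGTGGGCG. A match is a run of letters and not a bound site.

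Etv5, Tcl1 and Ret, the genes that mark the brighter cells, were present in Q2. At least 1 FPKM of all 3 was listed in 40 of 78 Q2 cells (51.3%), of 2 in 30 cells, of 1 in 7 cells and of 0 in 1 cell. All 3 were listed in 57 of 79 Q1 cells, 24 of 71 Q3 cells and 7 of 72 Q4 cells, so Q2 lay between its neighbours. A Q2 cell had 5485 ± 889 genes at 1 FPKM or more (SD, n = 4 preparations), against 5687 ± 697 in Q1 and 5426 ± 851 in Q3. The difference from Q1 was -202 genes (exact two-sided sign-flip test, p = 0.375) and that from Q3 was 58.5 genes (p = 0.625, same exact test), where the smallest p that 4 preparations allow is 0.125. Relative depth was recovered from the steps between low values and scaled to a median near 1 over the cells. Its mean was 1.03 ± 0.13 in Q2, 1.02 ± 0.14 in Q1 and 1.03 ± 0.17 in Q3 (SD, n = 4). The summed FPKM of a cell was higher in Q2 than in Q3 in 4 of 4 preparations, by 23980 on average (exact sign-flip p = 0.125). In preparations 1, 2 and 4 this sum was mostly lower in cells from later capture sites of the chip. In preparations 1 and 4 the Q3 cells lay at later sites more often than the Q2 cells. Comparing within preparations does not remove this, and the part of summed FPKM and capture site in the results below was not tested. Preparation 1 had the fewest genes per cell in Q2, 4291, against 5372 to 6336 in the others. By markers, 4 of 78 Q2 cells matched another cell type (at least 3 and 50% of its measured markers at 5 FPKM or more), of which 3 matched macrophages or leukocytes and 1 spermatids. In the whole series 14 of 300 cells did so. The summed macrophage and leukocyte markers averaged 1.79 to 1001 FPKM per cell over the Q2 preparations and 0.465 to 505 over those of Q1. Of the Leydig cell markers, Cyp17a1, Hsd3b1, Hsd3b6, Lhcgr and Hsd17b3 were listed at 0 in all Q2 cells. So were the myoid markers Acta2, Myh11 and Cnn1 and the Sertoli marker Cldn11. However, 9 of 10 Sertoli and 3 of 8 Leydig markers reached 1 FPKM in some Q2 cell. The same held for 3 of 6 myoid, 6 of 6 endothelial, 8 of 8 pachytene spermatocyte and 8 of 8 spermatid markers. Spermatid markers summed to 59.5 to 129 FPKM per cell in Q2, 65.4 to 99.8 in Q1 and 42.2 to 74.2 in Q3. Sertoli markers summed to 6.91 to 16.4 FPKM per cell in Q2, 0.514 to 9.86 in Q1 and 20.0 to 42.4 in Q3, and their part in the results was not tested.

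Q2 differed from Q1 past the threshold in 2 of 10411 tested genes (0.0192%, limma, Benjamini-Hochberg adjusted p under 0.05), both lower in Q2, and from Q3 in 0 of 10411 genes (0%). Before adjustment 597 genes (5.73%) reached p under 0.05 against Q1, of which 147 were higher (1.41%) and 450 lower (4.32%) in Q2. Against Q3, 767 genes (7.37%) did so, of which 515 were higher (4.95%) and 252 lower (2.42%) in Q2. The median standard error of a difference was 0.331 on the log2 scale, so small steps between neighbouring quartiles were not detectable with 4 preparations. Between Q1 and Q3, on either side of Q2, 102 genes differed (0.98%), 90 higher (0.864%) and 12 lower (0.115%) in Q1.

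The 2 genes that fell from Q1 to Q2 were Rab4a and the row named Id4e. RAB4A is a small GTPase that returns receptors from early endosomes to the cell surface (chromosome 8, 123805985 to 123835287, GRCm38). Rab4a stood at 1.30, 2.63, 2.50 and 2.42 in preparations 1 to 4 of Q1, and at 0.31, 0.29, 0.62 and 1.29 in those of Q2. Its Q3 values were 0.00, 0.22, 0.00 and 0.36. The Q1 and Q2 values touched without overlapping, since the lowest Q1 value, 1.30, came from preparation 1 and the highest Q2 value, 1.29, from preparation 4. The difference was -1.58 (SE 0.26, limma adjusted p = 0.0141), lower in 4 of 4 preparations. It reached 1 FPKM in 35 of 79 Q1 cells, 10 of 78 Q2 cells and 2 of 71 Q3 cells. In the Q2 cells that had it, the median was 34.95 FPKM, against 43.4 FPKM in such Q1 cells. The 2 quartiles differed in how many cells listed Rab4a, 35 against 10.

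No annotated gene has the symbol Id4e, and its meaning is not given in the sources used here. It stood at 1.76, 1.76, 2.35 and 1.63 in Q2, below 3.62, 4.84, 3.54 and 3.51 in Q1 and above 0.86, 1.08, 1.76 and 0.56 in Q3 of the same preparation. The Q2 and Q1 values did not overlap, with a difference of -2.00 (SE 0.33, limma adjusted p = 0.0141). Should it contain Id4 or reporter transcripts, it might not be independent of the EGFP brightness that set the quartiles, and this was not tested. With 3 preparations both stayed lower in Q2, by similar amounts, though most calls were lost. Rab4a differed by -1.78, -1.33 and -1.49 without preparation 1, 2 or 3 (limma adjusted p = 0.112, 0.647 and 0.179). Id4e differed by -2.05, -1.64 and -2.04 without preparation 1, 2 or 4 (limma adjusted p = 0.287, 0.647 and 0.263). Without a preparation block both stood at an adjusted p of 0.119 in limma. Slc38a1, a neutral amino acid transporter, was next (-1.11, SE 0.21, limma adjusted p = 0.067), and it passed when the cells matching other types were left out (-1.21, adjusted p = 0.0250).

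**Figure D1:**
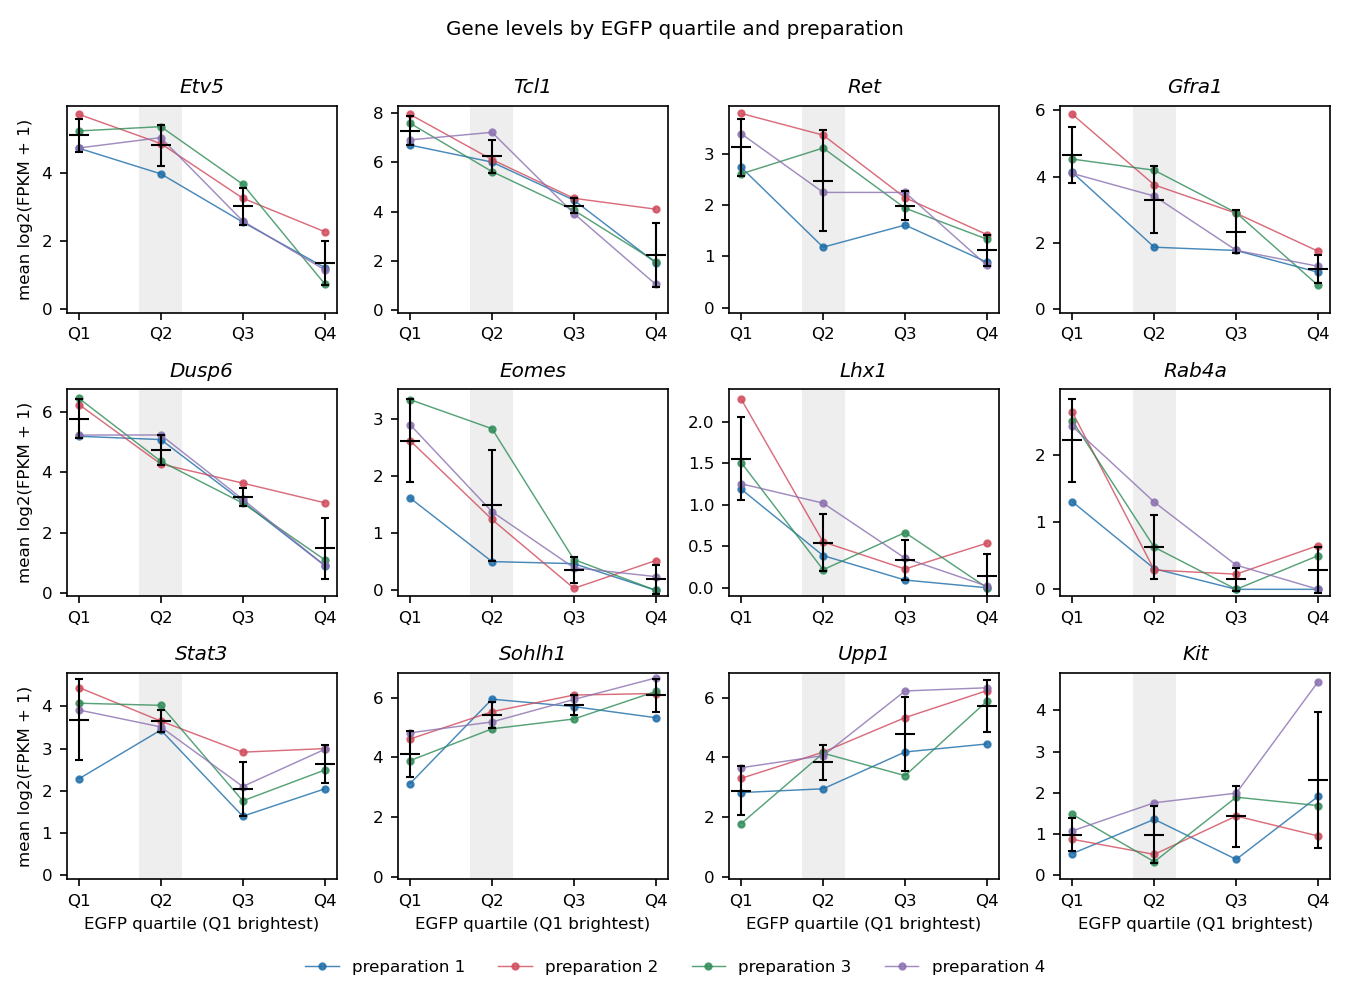
Mean log2(FPKM + 1) of 12 genes (vertical axes) in the 4 EGFP quartiles (horizontal axes, Q1 brightest), with 1 coloured line per preparation and black bars for the mean ± SD over the 4 preparations. The Q2 column is shaded: Etv5 and Stat3 stand near Q1 there, Tcl1, Gfra1, Dusp6 and Eomes in between, and Lhx1, Rab4a and Sohlh1 near Q3.

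For each of the 102 genes that differed between Q1 and Q3, the place of Q2 was described as the share of the Q1 to Q3 difference already covered in Q2, so that 0% is the Q1 level and 100% the Q3 level. These genes were chosen by their Q1 to Q3 difference. The spread that this difference was tested against came from all 4 quartiles, so Q2 values entered the choice through it. The median share was 49.6% (quartiles 36.3% and 59.8%), with a range from -7.85% to 100.3%. In 11 genes less than 25% was covered, in 77 between 25% and 75%, and in 14 more than 75%. Of the 102 genes, 10 (9.80%) lay off the midpoint of Q1 and Q3 at an unadjusted limma p under 0.05. Among all genes tested 4.04% did so. The choice of the 102 favoured genes with a small estimated spread, and the midpoint test uses that same estimate. No excess is therefore read from the 2 shares. All 10 were among the 90 genes higher in Q1. After adjustment 0 of 10411 genes passed (smallest limma adjusted p 0.996). Before adjustment, Q2 was apart from Q3 but not from Q1 in 32 of the 102 genes, apart from Q1 but not from Q3 in 28, and apart from both in 42. Those counts lean on the Q1 to Q3 difference that chose the genes and are given as a description. The median share was 45.4%, 46.3%, 50.7% and 52.9% without preparation 1, 2, 3 or 4, and 49.1% without the cells matching other types. Without preparation 1, 2, 3 or 4, the genes kept under 25% were 7, 9, 8 and 7 of the 11, and those kept over 75% were 12, 11, 13 and 12 of the 14. All 11 stayed under 50% and all 14 over 50%.

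**Figure D2:**
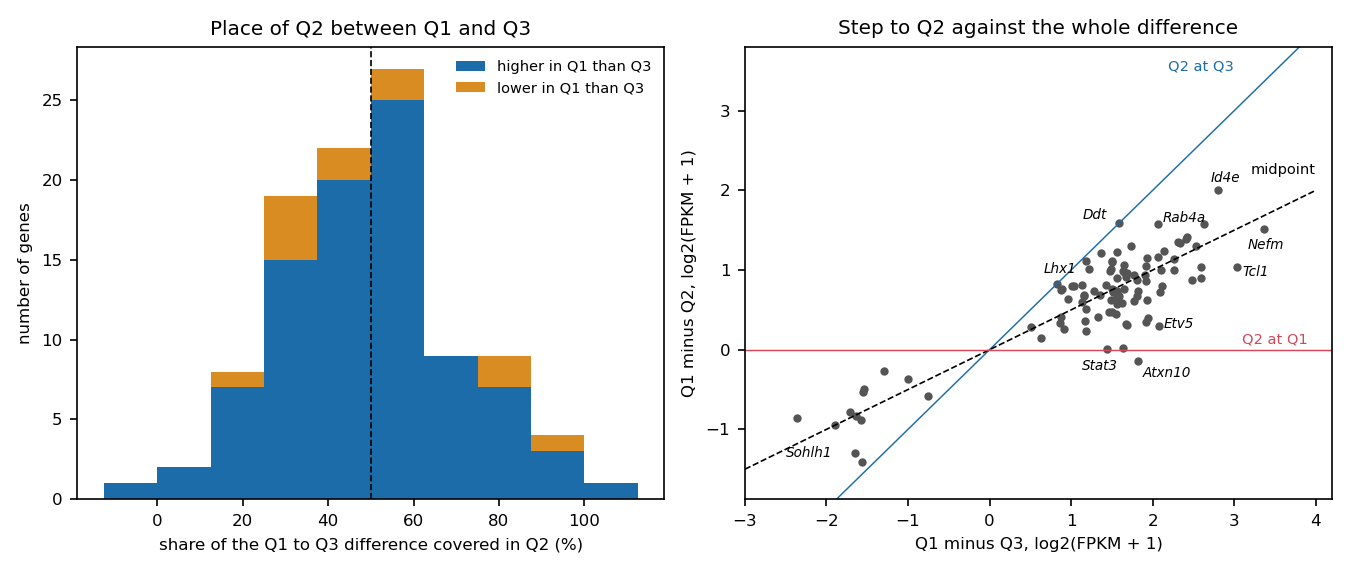
Left, number of the 102 genes that differed between Q1 and Q3 (vertical axis) by the share of that difference covered in Q2 (horizontal axis, %), with the midpoint dashed. Right, each such gene by its Q1 minus Q3 difference (horizontal) and its Q1 minus Q2 difference (vertical), both in log2(FPKM + 1), with lines for Q2 at the Q1 level, at the midpoint and at the Q3 level: the points gather around the midpoint line, and Atxn10 and Stat3 lie near the Q1 line while Ddt lies on the Q3 line.

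Etv5 was among the 11 genes that stood near the Q1 level in Q2. It lies on chromosome 16 from 22381309 to 22439719, and its protein carries much of the GDNF response in stem cells. Its levels were 4.72, 5.71, 5.22 and 4.72 in Q1, 3.96, 4.85, 5.35 and 5.03 in Q2, and 2.55, 3.25, 3.66 and 2.58 in Q3. Those of Q4 were 1.22, 2.27, 0.74 and 1.15. The Q2 values overlapped those of Q1 and lay above every value of Q3. Q2 was below Q1 by 0.29 on average (difference -0.29, 95% interval -1.05 to 0.47), which covered 14.2% of the way to Q3 (5.5% to 24% with each preparation left out). Against Q3 it was higher by 1.78 (SE 0.37) in 4 of 4 preparations, a difference that did not pass over all genes (limma adjusted p = 0.164). Its distance above the midpoint was 0.75 (SE 0.32, unadjusted p = 0.028, limma adjusted p = 1.00). Per cell, the median Etv5 value was 43.3 FPKM in Q1, 41.9 FPKM in Q2 and 7.26 FPKM in Q3.

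Other genes near the Q1 level were Atxn10, Stat3, Msn, Smarca2, Rasl11a, Ppfibp2 and Wbp5. Stat3, a transcription factor downstream of cytokine receptors, stood at 3.44, 3.65, 4.03 and 3.51 in Q2, against 2.28, 4.45, 4.08 and 3.92 in Q1 and 1.40, 2.92, 1.76 and 2.10 in Q3. The Q2 values lay within the Q1 range and above all Q3 values, and 1.4% of the difference was covered (-14.0% to 22% with each preparation left out). Its Q2 minus Q1 difference was -0.02 (95% interval -0.77 to 0.73). Stat3 shares exon sequence with Stat5a on the other strand, and the library kit does not mark strand. Msn, moesin, which ties the actin cortex to the membrane, stood at 2.12, 2.80, 2.99 and 2.36 in Q2 and at 0.34, 1.29, 1.32 and 1.61 in Q3, with 0.58% covered (-14.2% to 17.1%). Again the 2 groups did not overlap, and the Q2 minus Q1 difference was -0.01 (95% interval -0.67 to 0.66). Atxn10 was as high in Q2 (4.96, 5.41, 6.04 and 5.69) as in Q1 (5.56, 5.42, 5.06 and 5.47), and in Q3 it stood at 1.53, 4.55, 3.83 and 4.32. Preparation 1 was the lowest of Q3, and without it the share covered was -36.2%. Smarca2, an ATPase of the BAF chromatin remodelling complex, covered 19.4%, and the small GTPase gene Rasl11a covered 18.1% (2.64% to 28.2%). Smarca2 ranged from -3.5% to 38.6%, Ppfibp2 from -14.7% to 38.4% and Wbp5 from 2.07% to 40.3% with each preparation left out, so the place of these genes is known only roughly.

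Genes that already stood near the Q3 level in Q2 included the transcription factor genes Sohlh1 and Lhx1. Sohlh1, whose bHLH protein is needed for spermatogonia to differentiate, was lower in Q1 than in Q3 (difference -1.65, SE 0.35, limma adjusted p = 0.0144). It stood at 3.12, 4.62, 3.89 and 4.83 in Q1, 5.96, 5.54, 4.96 and 5.19 in Q2, and 5.71, 6.09, 5.29 and 5.95 in Q3. All Q2 values lay above all Q1 values and overlapped those of Q3, and 78.8% of the difference was covered (58.8% to 88.3% with each preparation left out). The Q2 minus Q1 difference of 1.30 (SE 0.35) did not pass over all genes (limma adjusted p = 0.48), and the Q2 minus Q3 difference was -0.35 (95% interval -1.07 to 0.37). Lhx1, a LIM homeobox gene that responds to GDNF, stood at 1.19, 2.27, 1.51 and 1.25 in Q1, 0.39, 0.55, 0.22 and 1.02 in Q2 and 0.09, 0.23, 0.66 and 0.36 in Q3. Q2 lay below all Q1 values and overlapped Q3, with 82.9% covered, and 14 of 78 Q2 cells listed it at 1 FPKM or more, against 30 of 79 in Q1 and 5 of 71 in Q3. Lhx1 and Etv5, both members of the GDNF list, therefore sat at opposite ends of the step, though the difference between their shares was not tested.

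Gng13, a G protein gamma subunit gene, was higher in Q2 (5.80, 6.07, 6.07 and 6.16) than in Q1 (3.18, 5.36, 5.04 and 4.91) and close to Q3 (5.86, 6.22, 5.70 and 6.97), with 89.6% covered. It shares exon sequence with Chtf18 on the other strand. Ddt, which encodes a relative of the cytokine MIF, stood at 6.92 to 7.19 in the 4 preparations of Q1, at 4.64 to 6.24 in Q2 and at 4.32 to 6.47 in Q3. Q2 lay wholly below Q1 and within the Q3 range, and 100.3% was covered (79.8% to 140.4% with each preparation left out). Exons of Ddt overlap the predicted gene Gm20441 on the same strand, so reads of the pair could be split either way. Slc38a1 stood at 0.13, 0.32, 0.79 and 0.32 in Q2, below 1.07, 1.70, 1.38 and 1.85 in Q1, and at 0.22, 0.21, 0.44 and 0.40 in Q3, with 93.6% covered. Pnoc, the precursor of the peptide nociceptin, covered 77.4% and Fam49a 78.1%. For Fam49a the Q2 value of preparation 1 was 0.68 against 2.47 to 2.55 in the others, and without that preparation 59.4% was covered.

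Of the 20 tested genes of GDNF and FGF signalling, 0 passed between Q2 and Q1 or Q3. By their means, 5 of the 20 were above Q1 in Q2 and 17 were above Q3. Gfra1, the GDNF co-receptor, stood at 4.13, 5.88, 4.53 and 4.10 in Q1, 1.87, 3.75, 4.19 and 3.41 in Q2, and 1.77, 2.90, 2.91 and 1.78 in Q3. It was lower in Q2 than in Q1 within each preparation, although the ranges overlapped, and 58.3% was covered. Preparation 1 held the lowest Q2 value, and there 4 of 17 Q2 cells had 1 FPKM or more, against 15 of 21, 18 of 20 and 16 of 20 in preparations 2, 3 and 4. Gfra1 overlaps the predicted antisense gene Gm16277. Ret, the signalling receptor, stood at 1.18, 3.37, 3.11 and 2.25 in Q2 and spanned nearly the whole range of Q1 and Q3 together, which ran from 1.61 to 3.79. The Ret differences were -0.66 from Q1 (SE 0.36, limma adjusted p = 0.892) and 0.49 from Q3 (SE 0.36, adjusted p = 0.843). Preparation 1 was again the lowest, and it also had the fewest genes per cell.

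Tcl1 stood at 6.70, 7.94, 7.58 and 6.91 in Q1, 6.00, 6.11, 5.62 and 7.21 in Q2, and 4.46, 4.54, 4.05 and 3.92 in Q3, with 1.92, 4.10, 1.97 and 1.04 among the dimmest. Q2 lay above all Q3 values and overlapped Q1 through preparation 4 alone, where it was the higher, and 34.3% of the difference was covered. The median per cell was 230 FPKM in Q1, 154 FPKM in Q2 and 48.4 FPKM in Q3. Dusp6, a phosphatase that switches ERK off, covered 40.2%. Its Q2 values of 5.07, 4.27, 4.35 and 5.22 all exceeded its Q3 values of 3.02, 3.63, 2.97 and 3.10. Spry4 and Spry2, Sprouty inhibitors of receptor tyrosine kinase signalling, covered 40.6% and 50.1%, and Egr2, an early growth response factor, covered 35.4%. Nefm, a neurofilament subunit, had the largest Q1 to Q3 difference of these genes (3.37, SE 0.40) and covered 45%. It was the single gene to pass between Q2 and Q3 under any setting, higher in Q2 by 2.40 without preparation 2 (limma adjusted p = 0.0489). Its exons overlap those of Nefl on the other strand.

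Among developmental transcription factors, Eomes, a T-box gene of a stem cell subset, stood at 1.62, 2.62, 3.34 and 2.90 in Q1, 0.50, 1.24, 2.83 and 1.38 in Q2 and 0.47, 0.04, 0.54 and 0.40 in Q3. It covered 50.1%, and preparation 3 stood above the other Q2 values. T, the brachyury gene, covered 42.8% (18.9% without preparation 2), Foxc2, a forkhead gene, 57.2%, and Hhex, a homeobox gene, 58.4%. Eomes overlaps the predicted gene Gm33460 on the other strand. Bcl6b, a GDNF-induced repressor, stood at 1.80 in Q1, 1.52 in Q2 and 1.38 in Q3 and passed in neither comparison of Q2 (limma adjusted p = 0.97 against Q1 and 0.959 against Q3). Zbtb16, the PLZF gene of undifferentiated spermatogonia, and Cd9, the sorted surface marker, were level within their spread: Zbtb16 stood at 4.94 ± 0.90, 4.81 ± 1.30 and 4.60 ± 0.63 in Q1, Q2 and Q3, and Cd9 at 7.34 ± 0.60, 7.06 ± 0.91 and 6.76 ± 0.48 (SD, n = 4).

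Genes of progenitors and of differentiation, named next, did not pass between Q2 and either neighbour. Neurog3, a bHLH gene of progenitors, stood at 0.58, 0.77, 0.48 and 0.36 in Q2 and at 0.10, 0.17, 0.00 and 0.00 in Q1. The groups did not overlap (difference 0.48, SE 0.18, limma adjusted p = 0.736), and 11 of 78 Q2 cells had 1 FPKM or more, against 3 of 79 in Q1 and 10 of 71 in Q3. Neurog3 has exons that overlap Fam241b on the other strand. Sox3, an HMG box factor of progenitors, stood at 1.04, 1.08, 1.06 and 1.02 in Q2, above 0.73, 0.82, 0.32 and 0.64 in Q1 (difference 0.42, SE 0.28, limma adjusted p = 0.928). Nanos3, an RNA-binding regulator, stood at 3.48 ± 0.86 in Q1, 4.80 ± 0.83 in Q2 and 5.40 ± 0.92 in Q3. Stra8 stood at 4.90, 3.71, 2.58 and 5.94 in Q2 and at 2.93, 3.53, 2.36 and 4.97 in Q1. It was higher in Q2 within each preparation, although the ranges overlapped. Its Q3 values were 4.10, 3.93, 4.55 and 5.35. Kit, the stem cell factor receptor, had the same mean in Q2 (0.99 ± 0.68) as in Q1 (0.99 ± 0.40), with an interval of the difference from -0.91 to 0.91. In Q3 Kit stood at 1.43 ± 0.73 and in Q4 at 2.31 ± 1.64 (SD, n = 4). Rarg, the retinoic acid receptor of spermatogonia, was also near Q1 in Q2 (1.02 ± 0.54 against 0.81 ± 0.39) and below Q3 (1.68 ± 0.26) in 4 of 4 preparations (limma adjusted p = 0.607). Upp1, uridine phosphorylase, which was lower in Q1 than in Q3 past the threshold, had 49.8% covered in Q2, a share that was 23.7% without preparation 3 and 67.2% without preparation 4.

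Lists of known genes, compiled with earlier results of these data known, are described by counts and medians. Of 24 stem cell associated genes 21 were tested, and 0 passed against Q1 or Q3. Before adjustment 10 of the 21 were lower in Q2 than in Q1, against 4.32% of all genes, and 9 were higher in Q2 than in Q3, against 4.95%. Their median difference was -0.66 from Q1 and 0.49 from Q3, beside medians of -0.0602 and 0.0401 over all genes. Of the 20 tested genes of GDNF and FGF response and ERK feedback, which share Etv5, Egr2 and other members with the first list, 8 were lower than in Q1 and 10 higher than in Q3 before adjustment, with medians of -0.45 and 0.55. The 17 tested progenitor genes had medians of 0.25 against Q1 and -0.18 against Q3, with 4 higher (1.41% of all genes) and 0 lower than in Q1 before adjustment, and 1 higher and 5 lower (2.42% of all genes) than in Q3. For 12 tested genes of differentiating spermatogonia the medians were 0.24 and -0.33, and for 14 of the retinoic acid pathway 0.11 and -0.12. Of 20 G2 and mitosis genes, 1 had a mean above Q1 in Q2, with a median of -0.42, while against Q3 the median was 0.00539. Ube2c, an E2 enzyme of the anaphase-promoting complex, was among them, at 1.44, 4.26, 3.41 and 5.92 in Q2 against 4.96 to 5.69 in Q1, and preparation 1 was far the lowest. The 20 S phase genes (-0.10 and 0.11) and the 30 cytosolic ribosomal protein genes (0.07 and 0.04) had medians near 0 against both neighbours. Of 16 immediate early and dissociation stress genes, 3 were lower than in Q1 before adjustment and 3 higher than in Q3, and their medians were -0.12 and 0.18.

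Tcl1, Etv5, Dusp6 and Nefm were higher in Q2 than in the dimmest cells, and Bnip3 and Upp1 were lower. Between Q2 and Q4, a comparison added after the data were seen, 32 of 10411 genes passed (0.307%), 26 higher (0.25%) and 6 lower (0.0576%) in Q2. With each mean centred on the median gene the numbers were 16 higher and 12 lower. The largest higher in Q2 were Tcl1 (3.98, SE 0.43, limma adjusted p = 8.0e-06), Etv5 (3.45, SE 0.37, adjusted p = 8.0e-06), Dusp6 (3.25, SE 0.42) and Nefm (2.30, SE 0.40). Tcl1, Etv5 and Dusp6 passed under all 13 alternatives tried and Nefm under 9, the Nefm call being lost without preparation 3 or 4 (limma adjusted p = 0.165 and 0.176). Ccnd2, cyclin D2, which drives entry into the cell cycle, was higher in Q2 than in Q4 by 2.05 (SE 0.33) and passed, also under 9 of the 13 alternatives but not without preparation 3 or 4 (limma adjusted p = 0.0809 and 0.0932). It stood at 5.85, 6.44, 6.02 and 6.43 in Q2, above all Q3 values (4.37, 4.55, 4.86 and 4.94) and within the Q1 range (4.66, 6.85, 5.90 and 6.01; Q2 minus Q1 0.33, 95% interval -0.35 to 1.01). Every one of the 78 Q2 cells had at least 1 FPKM of Ccnd2, against 76 of 79 in Q1 and 62 of 71 in Q3. Among the genes lower in Q2 than in Q4 were Bnip3, a mitophagy receptor (-1.91, SE 0.34), Upp1 (-1.90, SE 0.41), the mitotic kinase gene Aurka (-1.63, SE 0.36) and Iah1 (-1.46, SE 0.33). These calls held less often: Bnip3 passed under 8 of 13 alternatives, and not without preparation 3 or 4. Iah1 passed under 5, and not without preparation 1, 3 or 4, while Upp1 and Aurka passed under 3 and were lost without any 1 of the 4 preparations. Bnip3 stood at 4.59, 4.90, 3.67 and 4.92 in Q2, as in Q1 (4.95, 4.37, 4.12 and 4.86), and below Q3 in each preparation. Of the 21 stem cell genes 4 passed against Q4, and of the 20 GDNF and FGF genes 8 did, all higher in Q2 (0.25% of all genes).

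Against the mean of the other 3 quartiles, the test needed to call a gene particular to Q2, 0 of 10411 genes passed (577 at an unadjusted p under 0.05, 5.54%). The smallest adjusted p was that of Etv5 (1.65 above that mean, SE 0.30, limma adjusted p = 0.113), whose level falls in order from Q1 to Q4. No gene is therefore called particular to Q2. Ldha, lactate dehydrogenase A, stood highest in Q2 of the 4 quartiles, at 2.43 ± 0.36 against 1.49 ± 0.71, 1.79 ± 0.54 and 1.17 ± 0.46 in Q1, Q3 and Q4 (SD, n = 4), and it was higher than in Q1 and Q3 in 4 of 4 preparations, without passing (limma adjusted p = 0.682 against the mean of the others).

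Within Q2 the cells differed widely. The standard deviation of log2(FPKM + 1) over cells, taken within preparations and averaged, was 2.21 for Etv5, 3.10 for Tcl1, 1.91 for Ret and 2.48 for Gfra1. No gene's cell to cell SD differed past the threshold from that of Q1 (0 of 10411, limma, 408 at an unadjusted p under 0.05, 3.92%) or of Q3 (0 of 10411, 557, 5.35%). The nearest against Q1 were Neurog3 (SD higher in Q2 by 1.36, SE 0.25) and Tagln2 (by 1.49, SE 0.27), each with a limma adjusted p of 0.373. Against Q3, Barhl2 came nearest (SD higher in Q2 by 1.20, SE 0.22, adjusted p = 0.443). The SD of Etv5 was 1.83 in Q1, 2.21 in Q2 and 2.59 in Q3, and that of Eomes was 2.44, 2.01 and 1.03. For Neurog3, Barhl2 and Eomes the lower SD belonged to the quartile with the lower level. Neurog3 stood at 0.00 to 0.17 in Q1 and 0.36 to 0.77 in Q2. The mean of Barhl2 was 0.72 in Q2 and 0.07 in Q3. Eomes stood at 0.50 to 2.83 in Q2 and 0.04 to 0.54 in Q3. The part of these levels in the SDs was not tested. The largest SDs in Q2 belonged to Mir686 (4.49), whose locus lies within exons of Psmb5, and to Nup62cl (3.56), Snhg9 (3.54), Upp1 (3.52), Brcc3 (3.43), Pemt (3.42), Rhox10 (3.42), Rpl26 (3.41), Nanos3 (3.40) and Trappc2l (3.39). Apart from Rpl26, each of the 10 was listed at 0 in 18 to 62 of the 78 Q2 cells. Rpl26 was listed at 0 in no Q2 cell, and 39 of 78 had 1 FPKM or more. Nanos3 was listed at 0 in 23 of 78 Q2 cells and had a median of 131 FPKM in the 55 cells at 1 FPKM or more. For Upp1 the numbers were 26 cells at 0 and 100.4 FPKM in 51 cells.

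**Figure D3:**
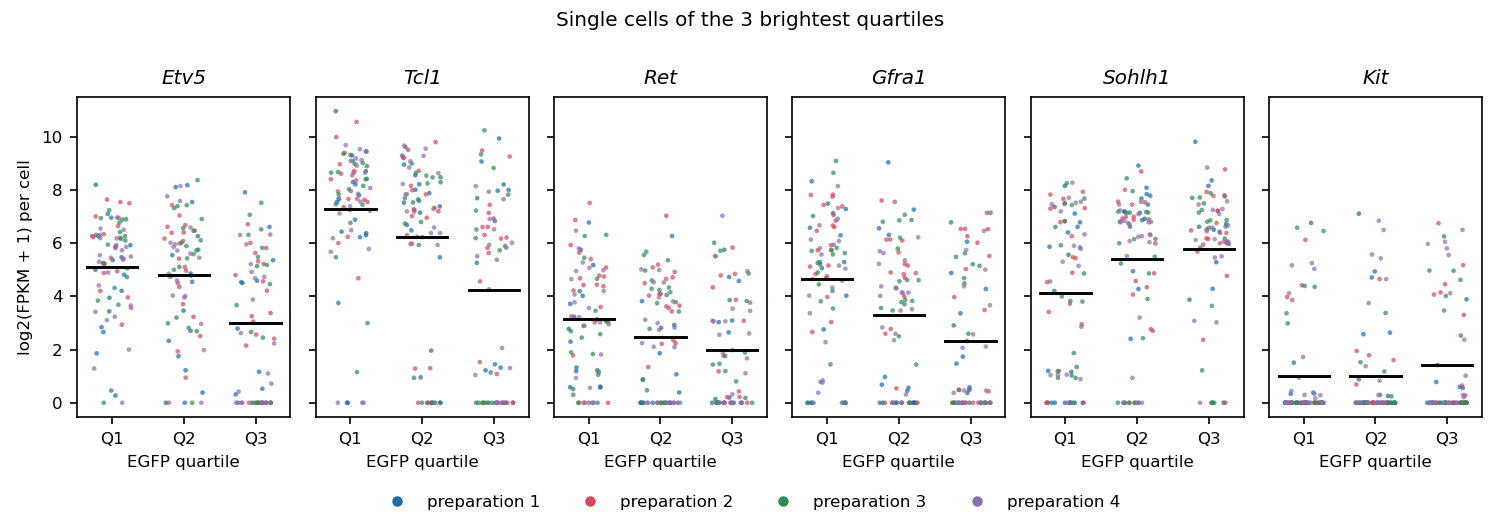
Single cells of Q1, Q2 and Q3 (horizontal axes), with log2(FPKM + 1) of 6 genes on the vertical axes, points coloured by preparation and black bars at the mean of the 4 preparation means. In Q2 most cells have Etv5 and Tcl1. The Q2 bar of Etv5 lies close to that of Q1, and that of Tcl1 lies between those of Q1 and Q3. For Gfra1 and Ret a group of cells lies at 0, and Kit is at 0 in most cells of all 3 quartiles.

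The marker genes were listed in different shares of Q2 cells. Etv5 reached 1 FPKM in 90.7 ± 5.96% of Q2 cells, Tcl1 in 83.3 ± 10.3%, Gfra1 in 66.2 ± 29.5% and Ret in 64 ± 21.1% (SD over 4 preparations). Etv5 without Tcl1 was seen in 12 of 78 Q2 cells and Tcl1 without Etv5 in 6. Among cells at 1 FPKM or more, the median Etv5 value was 47 FPKM in Q2, 45.8 in Q1 and 26.2 in Q3, and that of Tcl1 was 198 FPKM in Q2, 253 in Q1 and 84 in Q3. Gfra1 differed from Etv5 in this respect, with a median of 24.9 FPKM in such Q2 cells against 51.2 in Q1 and 31 in Q3. By Gfra1 and Kit together, 44 Q2 cells had Gfra1 alone, 10 had Kit alone, 9 had both and 15 had neither. The share with Gfra1 alone ran from 23.5% in 1 preparation to 80% in another. Eomes was listed at 1 FPKM or more in 27 Q2 cells, of which 21 also had Gfra1, and its share ran from 11.8% to 70% over the preparations. Gfra1 and Sohlh1 were found together in 44 of 78 Q2 cells (56.4%), against 65.8% in Q1 and 40.8% in Q3. Each of the 2 genes was listed in most Q2 cells on its own, and the overlap due to that was not computed. The count therefore does not show that the 2 go together. Over the 78 Q2 cells, centred by preparation, their values had a Pearson r of -0.038.

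The mean level of the 21 stem cell genes in a cell served as a score. Its means were 2.74 ± 0.40 for Q2, 3.27 ± 0.44 for Q1, 2.09 ± 0.19 for Q3 and 1.57 ± 0.43 for Q4 (SD, n = 4), and single Q2 cells ran from 0.83 to 4.86. Set against the medians of their own preparation, 18 of 78 Q2 cells were at or above the Q1 median, 47 lay between the Q1 and Q3 medians and 13 were at or below the Q3 median. Of these 78 cells 7 lay below the Q4 median. The list was compiled with earlier results of these data known, and 11 of its 21 genes passed as higher in Q1 than in Q3 (0.864% of all genes). The order of Q1 and Q3 in the score is thus partly built in, and the places of Q2 cells are a description. The mean level of the 12 differentiation genes was 3.70 ± 0.44 in Q1, 3.94 ± 0.56 in Q2 and 4.18 ± 0.23 in Q3. Over the 78 Q2 cells, centred by preparation, the 2 scores had a Pearson r of -0.178. The differentiation score went with the number of genes per cell (r = 0.585), the stem cell score went weakly against it (r = -0.221), and relative depth had an r of -0.03 with the stem cell score. These are descriptions over cells that share preparations, and the part of genes per cell in them was not tested.

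**Figure D4:**
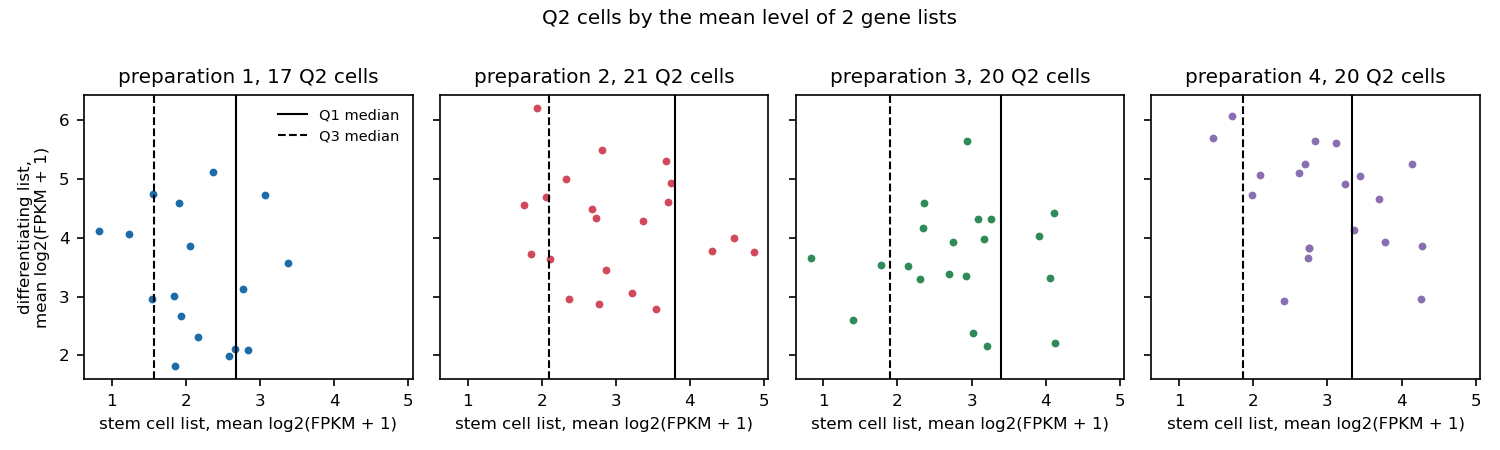
Each Q2 cell by its mean log2(FPKM + 1) over 21 stem cell genes (horizontal axis) and over 12 genes of differentiating spermatogonia (vertical axis), in 1 panel per preparation, with the preparation's Q1 median (solid) and Q3 median (dashed) of the stem cell score. Of the 78 cells, 47 lie between the lines, 18 at or right of the solid line and 13 at or left of the dashed line.

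The genes whose values followed Etv5 most closely over the 78 Q2 cells, centred by preparation, were Foxc2 (Pearson r = 0.568), Nbeal1 (0.453), Ppfibp2 (0.444), Chrna4 (0.424) and Chd4 (0.417), with Dusp6 next (0.416). They were picked as the highest among the tested genes, predicted genes left out. Part of their size is thus due to the choice, and it was not tested against a background. Etv5 went with Gfra1 at r = 0.314 and less with Tcl1 (0.174) and Ret (0.147), and with Sohlh1 it ran the other way (-0.311). Gfra1 and Ccnd2 had an r of 0.473, and Dusp6 and Upp1 one of -0.504. With genes per cell, Sohlh1 had an r of 0.398 and Etv5 one of -0.259, and the part of this in the correlations was not tested. Foxc2 and Ppfibp2 were both also among the 102 genes that differed between Q1 and Q3 (0.98% of all genes tested).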

How the data were processed

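Single-cell RNA of 300 cells was measured on Fluidigm C1 chips after sorting, per the labels' protocols. The deposited table holds 23354 gene names, 5602 of them at 0 throughout, and its 300 columns each matched 1 cell. The FPKM unit of the deposited values is inferred, since the header is silent and the submitters' processing notes list Cufflinks, beside TopHat, FastQC and Picard and the builds mm10 and GRCm38. Raw counts were not used here, so depth was recovered only as a relative value from the commonest ratios of low values between cells (99.9% of 34671 usable pairs matched), and an FPKM of 0 says only that a gene is listed at 0. Id4 itself and mitochondrial genes are not analysed here.

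For each gene log2(FPKM + 1) was averaged within preparation and quartile, over 15 to 22 cells, into 16 means. The 10411 genes that reached 1 FPKM in 30 or more cells were fitted by limma 3.58.1 (R 4.3.3) on quartile with preparation as a block, using eBayes with trend and robust estimation. The 4 quartiles shared 1 estimate of spread, and p-values were adjusted by Benjamini-Hochberg over all tested genes (threshold 0.05). The SD over cells within each preparation and quartile was tested in the same way. Differences on this scale understate the change of genes with low values.

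The quartiles of a preparation come from the same animals, which is where the pairing comes from. Across genes, the deviations of 2 quartiles of 1 preparation had correlations of 0.0112 to 0.360 (median 0.129), and 14 of 16 means correlated best with their own preparation.

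Genes were named by a rule: a panel of 23 genes, the largest differences past the threshold, the genes with under 25% or over 75% of the Q1 to Q3 difference covered, the 10 largest SDs in Q2, the 5 closest to Etv5, and up to 4 per list. Spry2, T, Hhex, Tagln2, Barhl2 and the groups' further members were named after their values were seen. The cells, the gene lists and the rule were chosen with earlier results of these data known. Gene positions come from the GENCODE annotation of GRCm38, and promoters from RefSeq.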

Additional observations from a re-analysis of the deposited data

Results flagged for a closer look

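In 2 of the 109 groups of 4 Q2 values checked, 1 preparation stood far from the others. The gap to the nearest value, divided by the whole range, was above Dixon's 95% critical value. Chance alone flags about 1 in 20 such groups. Upp1 in Q2 was lowest in preparation 1, at 2.94, where the other preparations stood at 4.06 to 4.18. Fam49a in Q2 was lowest in preparation 1, at 0.676, where the others stood at 2.47 to 2.55. Both values came from the preparation with the fewest genes per cell, and the part of this in them was not tested.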

How the results depend on the processing

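With 4 preparations and a median standard error of 0.331, single steps between neighbouring quartiles had few calls. The 102 genes between Q1 and Q3 became 46 with no filter on low values, 60 with a stricter filter (1 FPKM in 100 cells), 33 without the replicate block, 57 with genes per cell as a covariate, 7 on the log2 of mean FPKM, and 31 to 85 with each preparation left out. The lowest were 31 without preparation 2, 34 without preparation 4 and 48 without preparation 3. The 2 genes between Q2 and Q1 became 0 with no filter, without the replicate block, on the log2 of mean FPKM and with only the compared quartiles in the fit, 1 with the stricter filter and with the covariate, and 0 to 1 with each preparation left out (0 without 1 or 2). Between Q2 and Q3 the count stayed at 0 except without preparation 2, where it was 1 (0 to 1). The 32 genes between Q2 and Q4 became 7 with no filter, 5 without the replicate block, 6 on the log2 of mean FPKM and 4 to 22 with each preparation left out (18 without preparation 1, 4 without 3 and 4 without 4). The tests against the midpoint, against the mean of the others and of cell to cell SD gave 0 calls under each alternative tried. Centring each mean on its median gene moved the median difference between Q1 and Q3 from 0.0983 to -0.048 and the split of calls from 90 higher and 12 lower to 56 and 19, and between Q2 and Q4 from 26 and 6 to 16 and 12. No called value changed sign under the alternatives tried. The causes were not tested.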
